A study of Homo sapiens with 6 samples.

Results

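Differentiation markers of the intestinal epithelium were followed in DLD-1, a line from a human colorectal adenocarcinoma, with and without expression of DKK1. The set held 48 genes that mark enterocytes (23 genes), goblet cells (13) or enteroendocrine cells (12), and a gene was taken as measured where a probe set carried its symbol alone. By this rule 45 of the 48 were measured, out of 18404 genes named on the arrays, with 1 probe set per gene, the one with the highest mean. FABP1 shared its probe set with another gene, and NEUROD1 and PCSK1 were not analysed here. DLD-1/DKK1 cells carried a lentiviral DKK1 gene that doxycycline switches on, and DLD-1/Mock cells the vector that lacks the gene. Both groups carry the APC mutation of the line and had received doxycycline, at 10 mg/ml according to the labels and at the same figure in micrograms per ml according to the methods, for a day. RNA of 3 dishes per group was hybridised to 6 whole-transcript arrays. A line is 1 tumour's cells, the dishes may share a transduction, and the p-values below then measure the spread between dishes.

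The epithelium of the gut renews from stem cells at the crypt base, whose daughters become absorptive or secretory. Absorptive enterocytes carry a brush border of microvilli with digestive enzymes and transporters, goblet cells secrete mucins, trefoil peptides and other proteins of the mucus, and enteroendocrine cells store hormones in granules with chromogranins. Wnt signalling keeps the stem cell state at the crypt base, and DKK1 is a secreted inhibitor of that pathway. In DLD-1 cells, however, the authors found β-catenin transcriptional activity unaffected by DKK1.

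The DKK1 probe set checked the labels, with log2 expression of 12.35 ± 0.04 in DLD-1/DKK1 and 5.30 ± 0.38 in DLD-1/Mock (SD, n = 3 each). The array labelled Mock 2 stood apart, its correlations with the rest being 0.9953 to 0.9969, where any pair of the other 5 arrays reached 0.9973 or more. The array medians did not overlap between the groups, at 6.76 to 6.81 in DLD-1/DKK1 and 6.82 to 6.86 in DLD-1/Mock. The difference of means was -0.05, which the fit left in and which centring each array on its median takes out. It did not stand evenly in the fold changes below. The median fold change of named genes was -0.06 at mean log2 values of 6 to 7.5 and 0.02 at 8 and over. The general epithelial and colon genes fixed as a check of the cell type were bright, with mean log2 values of 7.28 to 12.88 for 7 genes, among them EPCAM (12.85) and the intestinal transcription factor CDX2 (10.59). Genes of other cell types were not uniformly dim. Of 7 leukocyte genes 4 lay above the background level defined below, CD68 (7.35), CD79A (6.51), CD14 (6.23) and ITGAM (6.10), while the pan-leukocyte gene PTPRC (4.34) did not, and of 5 hepatocyte genes SERPINA1 (7.56) did and albumin, ALB (4.76), did not. Of 6 fibroblast genes 4 did, COL1A1 (7.45), PDGFRB (6.62), COL3A1 (6.45) and COL1A2 (6.45), while DCN (4.39) and LUM (4.19) did not. Of 5 endothelial genes 1 did, CDH5 (6.17).

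Which lineage markers DLD-1 cells express was read from brightness. The arrays carry no detection call, so the 95th percentile of 350 probe sets of olfactory receptors was taken as a working background level, at a log2 value of 6.05. Olfactory receptors are best known from the nose, but some are made in other tissues, the gut included, so the level is a convention and not a measure of absent transcripts. Of the 45 measured markers, 27 had a mean over the 6 arrays above this level, 14 of 22 enterocyte, 10 of 13 goblet and 3 of 10 enteroendocrine markers, against 71.4% of all named genes. At the 99th percentile, 6.80, 18 markers remained above, 9, 6 and 3 of the same lineages. Brightness depends on the probes as well as on the transcript, so these positions rank no gene against another.

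Among the enterocyte markers, CDH17 and VIL1 lay far above background, with mean log2 values of 11.93 and 9.90. Of the other markers of absorptive cells, 12 were above the level too, among them CA2 (8.12), DPP4 (8.02), GUCA2B (7.40), APOA1 (7.39), ALPI (7.10), GUCA2A (7.05), CA4 (6.40), LCT (6.33) and AQP8 (6.07), and 8 were not. Of these 8, the disaccharidase SI (4.26), the fatty acid binding protein FABP2 (4.30), the chloride/bicarbonate exchanger SLC26A3 (4.37), MS4A12 (4.39), CA1 (4.58) and CEACAM7 (4.62) were all below the median of the olfactory receptor probe sets, 4.81. In the goblet lineage AGR2 (11.65), GALNT12 (10.17), TFF3 (9.53) and TFF1 (8.90) were bright, while the secreted proteins CLCA1 (4.19) and ITLN1 (4.76) were below that median. In the enteroendocrine lineage SCG5 (9.58), INSM1 (8.07) and PYY (7.15) passed the background level, and chromogranin A, CHGA, did not (5.26). NTS (4.47), SCG2 (4.67), GCG (4.70) and TPH1 (4.79) were below the olfactory median too. APOA1 and APOA4 (6.55) counted as above the background level by the brighter of 2 probe sets each. The dimmer probe sets had means of 5.57 for APOA1 and 4.92 for APOA4, below that level.

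**Figure D1:**
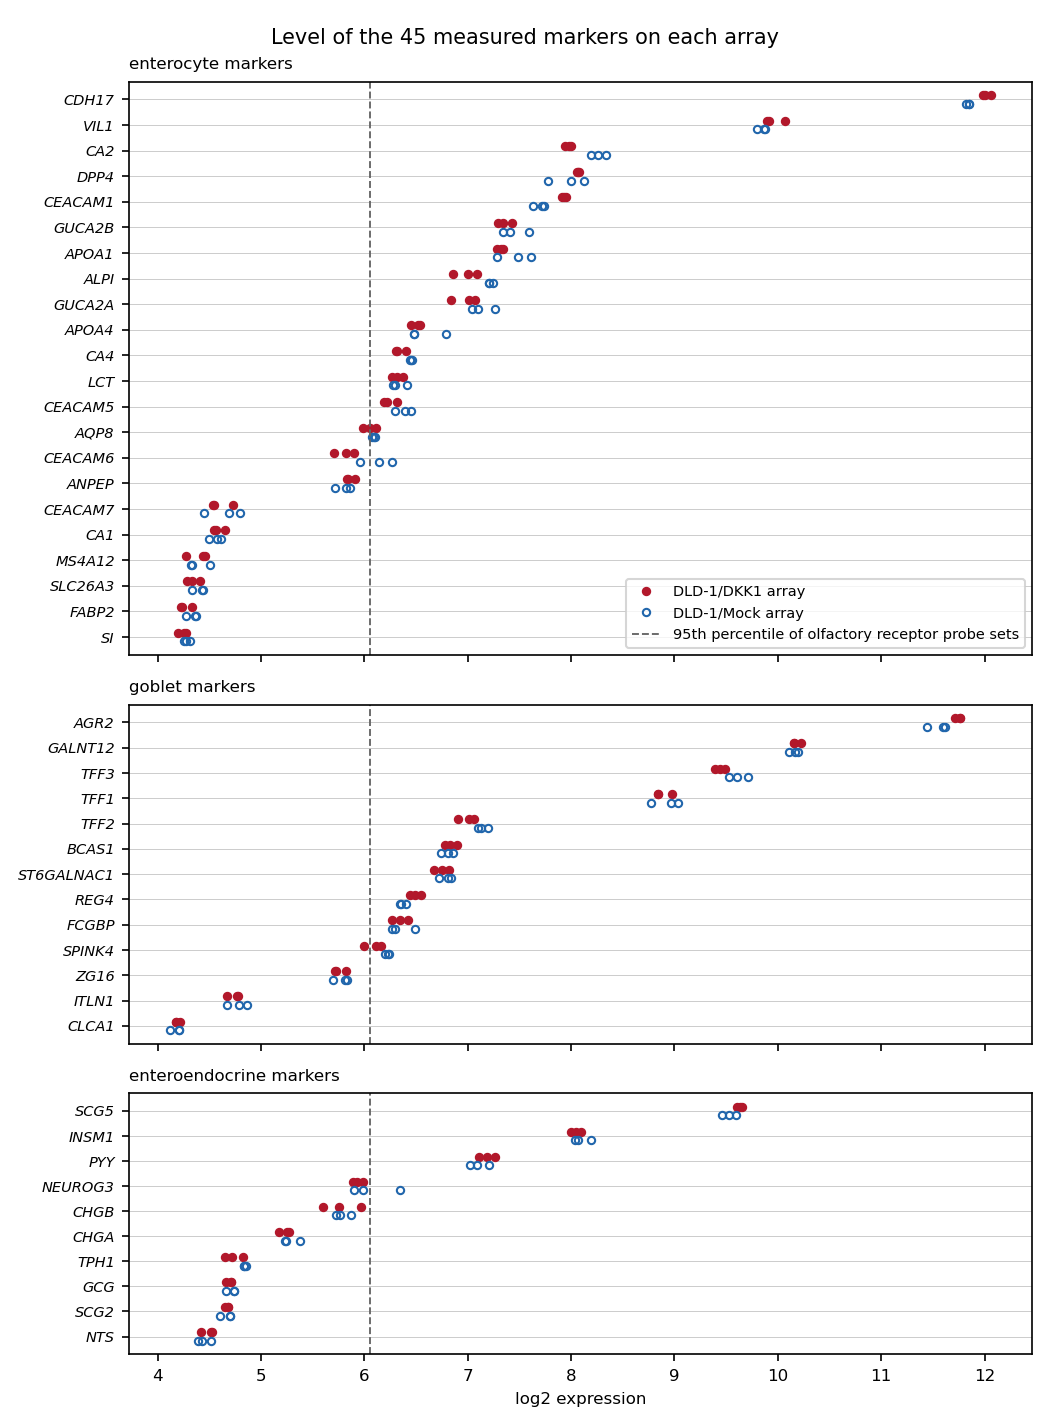
Log2 expression (horizontal axis) of each of the 45 measured markers on the 3 DLD-1/DKK1 arrays (filled red points) and the 3 DLD-1/Mock arrays (open blue points), by lineage, with the dashed line at the olfactory receptor level of 6.05. CDH17, with a mean of 11.93, and AGR2 lie farthest right, CLCA1 has the lowest mean, 4.19, and the distance between the groups is small beside the range between genes.

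The comparison then set the markers in DLD-1/DKK1 against those in DLD-1/Mock. None of the 45 passed an adjusted p of 0.05 in limma, where 0.0866% of all 32321 probe sets and 0.136% of the named genes did. The lowest adjusted p of a marker was 0.185, for CA2. Before adjustment, 12 of the 45 (26.7%) had a limma p under 0.05, of which 4 were higher and 8 were lower in DLD-1/DKK1, against 10.1% of the named genes (4.67% higher, 5.45% lower) and 9.23% of all probe sets (4.02% higher, 5.21% lower). The balance of directions depended on the scaling, with 6 higher and 3 lower of 9 after centring each array on its median, and 4 higher and 4 lower of 8 after quantile normalisation as well as after cyclic loess. In 14 markers the groups did not overlap, 6 higher and 8 lower, against 19.5% of the named genes (9.69% higher, 9.8% lower) and 16.5% of all probe sets (7.91% higher, 8.55% lower). The differences were small, with log2 fold changes of -0.31 to 0.24 and a median of -0.04, beside -0.01 over all named genes. After median centring the median of the markers was 0.01. Half-widths of the 95% intervals ran from 0.0953 to 0.274, which limits what could be seen in single markers. A two-sided exact permutation test over 3 against 3 arrays cannot go below p = 0.1, the value of each of the 14 markers without overlap.

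**Figure D2:**
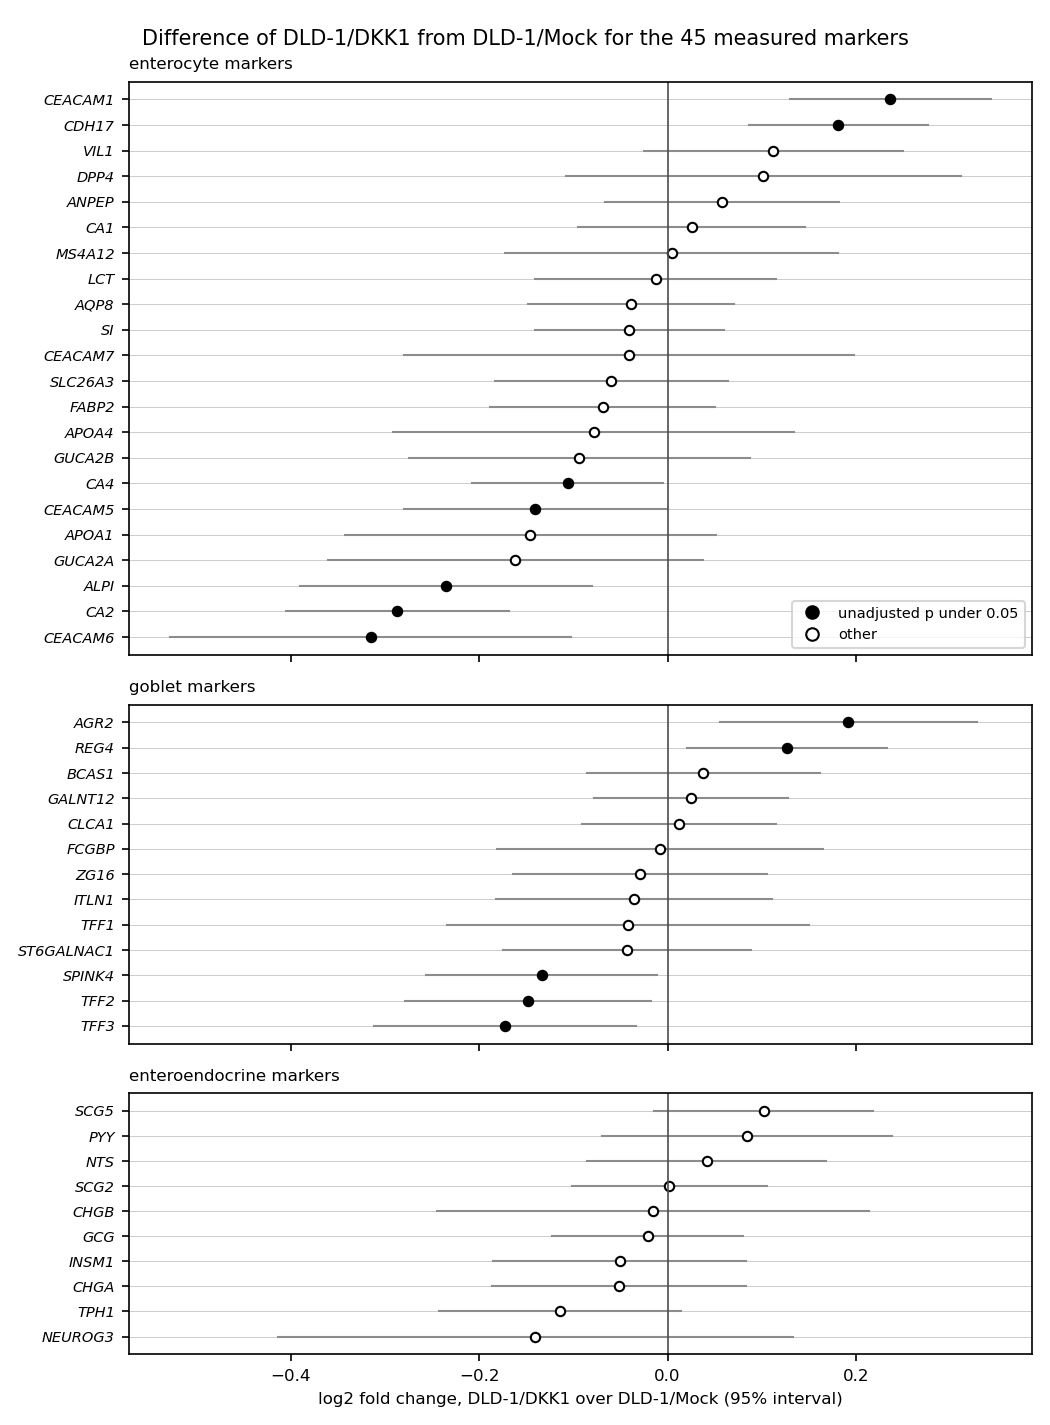
Difference in log2 expression, DLD-1/DKK1 minus DLD-1/Mock (horizontal axis), with its 95% interval (whiskers) for the 45 measured markers by lineage, 3 arrays per group, filled points for the 12 with an unadjusted limma p under 0.05. CEACAM1 lies highest at 0.24 and CEACAM6 lowest at -0.31, and no enteroendocrine marker is filled.

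Enterocyte structure was represented by CDH17, the liver-intestine cadherin, and VIL1, the actin bundler of microvilli. CDH17 had log2 values of 12.01, 12.06 and 11.99 in DLD-1/DKK1 arrays, against 11.84, 11.82 and 11.85 in DLD-1/Mock arrays. The groups did not overlap, and the log2 fold change was 0.18 (SE 0.04; limma adjusted p = 0.325), or 13.4% on the linear scale. VIL1 had values of 9.90, 10.06 and 9.92 in DLD-1/DKK1 and of 9.87, 9.88 and 9.80 in DLD-1/Mock. Its groups did not overlap either, DLD-1/DKK1 being higher, and its fold change of 0.11 (SE 0.06) came with an adjusted limma p of 0.587. Without the array DKK1 2, its highest, it was 0.06.

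Of the brush border enzymes, ALPI, the intestinal alkaline phosphatase, was the 1 of 5 with an unadjusted p under 0.05. Its log2 values were 6.85, 7.0 and 7.09 in DLD-1/DKK1, against 7.21, 7.20 and 7.24 in DLD-1/Mock. The groups did not overlap, DLD-1/DKK1 being lower, at -0.24 on the log2 scale (SE 0.06), with a limma adjusted p of 0.436. ALPI belongs to a family of closely similar alkaline phosphatases, and how far its probes read the others was not tested. DPP4, a dipeptidyl peptidase, had values of 8.06, 8.08 and 8.07 in DLD-1/DKK1 and of 8.12, 7.77 and 8.00 in DLD-1/Mock. The DLD-1/Mock arrays lay on both sides of the others, with Mock 2 lowest, and the log2 fold change of 0.10 was 0.01 without Mock 2 and 0.18 without Mock 1. The aminopeptidase ANPEP (0.06), SI (-0.04) and lactase LCT (-0.01) had groups that overlapped.

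CA2, a cytosolic carbonic anhydrase of colonocytes and many other cells, had the smallest p of the set. Its log2 values were 7.98, 8.00 and 7.94 in DLD-1/DKK1, against 8.26, 8.19 and 8.33 in DLD-1/Mock. Every DLD-1/DKK1 array lay below every DLD-1/Mock array, by more than the SD within either group (0.03 and 0.07). The log2 fold change was -0.29 (SE 0.05; 95% interval -0.41 to -0.17; limma adjusted p = 0.185), a linear change of -18.0%. The membrane-bound CA4 was nearer background, at 6.40, 6.31 and 6.32 in DLD-1/DKK1 and 6.46, 6.45 and 6.44 in DLD-1/Mock. Its groups did not overlap, with a fold change of -0.11 (SE 0.04; limma adjusted p = 0.531). CA1 (0.03) and SLC26A3 (-0.06), both below background, and the water channel AQP8 (-0.04), at it, had overlapping groups, as had MS4A12, a membrane protein of colonocytes, at 0.00.

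The guanylins, peptide hormones that the epithelium secretes into the lumen and that act on guanylate cyclase C, are encoded by GUCA2A and GUCA2B, which stand next to each other on chromosome 1. GUCA2A had log2 values of 6.83 to 7.07 in DLD-1/DKK1 and of 7.04 to 7.26 in DLD-1/Mock, and GUCA2B had 7.29 to 7.43 in DLD-1/DKK1 and 7.34 to 7.59 in DLD-1/Mock. Both pairs of groups overlapped, with fold changes of -0.16 and -0.09. Genes of lipid handling gave no marker with an unadjusted p under 0.05 either. FABP2 had -0.07, APOA4 -0.08 and APOA1 -0.15, and for APOA1, the main protein of high-density lipoprotein, a further probe set had a fold change of the other sign, 0.05.

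The CEACAM family, cell adhesion molecules of the immunoglobulin superfamily on the apical surface, held both the highest and the lowest fold change of the set. CEACAM1, which inhibits signalling through tyrosine-based motifs in its tail, had log2 values of 7.95, 7.92 and 7.93 in DLD-1/DKK1, against 7.73, 7.63 and 7.72 in DLD-1/Mock. The groups did not overlap, and the log2 fold change was 0.24 (SE 0.04; 95% interval 0.13 to 0.34; limma adjusted p = 0.241), or 17.8%. CEACAM6, anchored in the membrane by a glycolipid, had 5.71, 5.82 and 5.90 in DLD-1/DKK1, against 6.27, 5.96 and 6.14 in DLD-1/Mock. It differed in the opposite direction, again with no overlap, at -0.31 (SE 0.09; limma adjusted p = 0.443), with a mean of 5.97 that did not reach the olfactory receptor level. CEACAM5, the carcinoembryonic antigen used as a serum marker of colorectal cancer, had 6.22, 6.31 and 6.19 in DLD-1/DKK1 and 6.30, 6.39 and 6.45 in DLD-1/Mock. Here 1 DLD-1/DKK1 array reached into the range of the other group, and the fold change was -0.14 (SE 0.06; limma adjusted p = 0.539). CEACAM7 was dim, with a fold change of -0.04. The members resemble each other in sequence, and how far the probes of one read another was not tested.

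The promoters of CEACAM1, CEACAM5 and CEACAM6 are shown because these relatives differed in direction. CEACAM7, CEACAM5 and CEACAM6 follow each other on chromosome 19, while CEACAM1 lies elsewhere on it. Each sequence runs 5′ to 3′ from 250 bases before to 50 bases after the start of the gene and comes from RefSeq (GRCh38.p14), at chr19:42528432-42528731 (minus strand), chr19:41708376-41708675 (plus strand) and chr19:41755280-41755579 (plus strand). Capitals mark matches to motifs on either strand.
CEACAM1: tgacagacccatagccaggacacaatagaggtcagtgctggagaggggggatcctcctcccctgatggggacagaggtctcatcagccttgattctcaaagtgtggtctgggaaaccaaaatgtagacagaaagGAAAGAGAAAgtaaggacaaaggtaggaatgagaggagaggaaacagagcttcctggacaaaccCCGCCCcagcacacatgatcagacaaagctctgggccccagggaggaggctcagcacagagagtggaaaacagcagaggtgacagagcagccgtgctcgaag
CEACAM5: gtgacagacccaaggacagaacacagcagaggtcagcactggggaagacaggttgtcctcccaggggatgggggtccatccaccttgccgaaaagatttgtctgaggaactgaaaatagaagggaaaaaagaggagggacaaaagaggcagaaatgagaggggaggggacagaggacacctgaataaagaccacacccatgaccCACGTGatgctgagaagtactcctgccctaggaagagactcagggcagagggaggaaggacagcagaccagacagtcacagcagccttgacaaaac
CEACAM6: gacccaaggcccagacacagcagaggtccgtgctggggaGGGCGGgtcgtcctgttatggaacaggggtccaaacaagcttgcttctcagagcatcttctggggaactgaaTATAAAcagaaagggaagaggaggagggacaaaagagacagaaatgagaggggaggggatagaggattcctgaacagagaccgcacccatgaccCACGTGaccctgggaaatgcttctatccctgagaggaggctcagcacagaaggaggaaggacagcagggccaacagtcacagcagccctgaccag
Counted from the start, the E-box CACGTG began at -46 in CEACAM5 and at -45 in CEACAM6, and no match was in the window of CEACAM1. It occurred in 7.26% of 35116 promoters of this length. CEACAM1 had instead a match at -116 to an interferon-type repeat, GAAA and GAAA with any 2 bases between them (3.57% of promoters), and at -52 a GC box, GGGCGG, on the other strand (45% of promoters). CEACAM6 had a GC box at -211 and TATAAA (11.5% of promoters) at -139, farther out than is usual for a TATA box. No match in these windows overlapped another, and the CDX core TTTATG (10.6% of promoters) was in none of the 3. In a global alignment CEACAM1 had 65.6% identity with CEACAM5 and 68.2% with CEACAM6, and CEACAM5 had 74.7% with CEACAM6. Matches are given as a description of the letters and were not tied to the fold changes. Of the 45 measured markers, 29 had a promoter in the table.

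The trefoil factors, small cysteine-rich peptides that goblet and other mucous cells secrete and that aid repair of the mucosa, lie side by side on chromosome 21. TFF3, the trefoil factor of intestinal goblet cells, had log2 values of 9.44, 9.48 and 9.39 in DLD-1/DKK1, against 9.61, 9.52 and 9.71 in DLD-1/Mock. The groups did not overlap, with a fold change of -0.17 (SE 0.06; limma adjusted p = 0.495). TFF2 had 6.90, 7.01 and 7.06 in DLD-1/DKK1 and 7.10, 7.19 and 7.13 in DLD-1/Mock. Its groups were apart as well, at -0.15 (SE 0.05; limma adjusted p = 0.518). TFF1, better known from the stomach, had 8.84, 8.84 and 8.98 in DLD-1/DKK1 and 8.97, 9.04 and 8.77 in DLD-1/Mock, so that Mock 3 lay below and Mock 2 above all other arrays. Its fold change was -0.04 (95% interval -0.23 to 0.15).

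AGR2, a protein disulphide isomerase of the endoplasmic reticulum that goblet cells need to make mucin, had log2 values of 11.76, 11.77 and 11.71 in DLD-1/DKK1, against 11.60, 11.44 and 11.61 in DLD-1/Mock. There was no overlap, with Mock 2 lowest, and the log2 fold change was 0.19 (SE 0.06; limma adjusted p = 0.465), or 14.2%. Without Mock 2 it was 0.14. REG4, a secreted lectin-like protein, had 6.49, 6.54 and 6.44 in DLD-1/DKK1, against 6.34, 6.36 and 6.40 in DLD-1/Mock. These groups were apart too, at 0.13 (SE 0.04; limma adjusted p = 0.51), close above background. SPINK4, a small protease inhibitor of goblet cells, had 6.16, 6.0 and 6.11 in DLD-1/DKK1 and 6.23, 6.20 and 6.24 in DLD-1/Mock. Its groups did not overlap either, in the other direction, at -0.13 (SE 0.05; limma adjusted p = 0.524).

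The other 7 goblet markers had overlapping groups. GALNT12, which starts O-glycan chains on mucins, had 10.22, 10.16 and 10.16 in DLD-1/DKK1 and 10.16, 10.11 and 10.19 in DLD-1/Mock, a fold change of 0.02 (95% interval -0.08 to 0.13). ST6GALNAC1, a sialyltransferase that caps such chains, had -0.04. The mucus protein FCGBP (-0.01), BCAS1 (0.04), the lectins ZG16 (-0.03) and ITLN1 (-0.04) and the secreted metalloprotease CLCA1 (0.01) made up the rest. Goblet markers had a median of -0.03 in all, 2 of the 13 being higher and 3 lower where the unadjusted p was under 0.05, against 4.67% and 5.45% of the named genes.

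**Figure D3:**
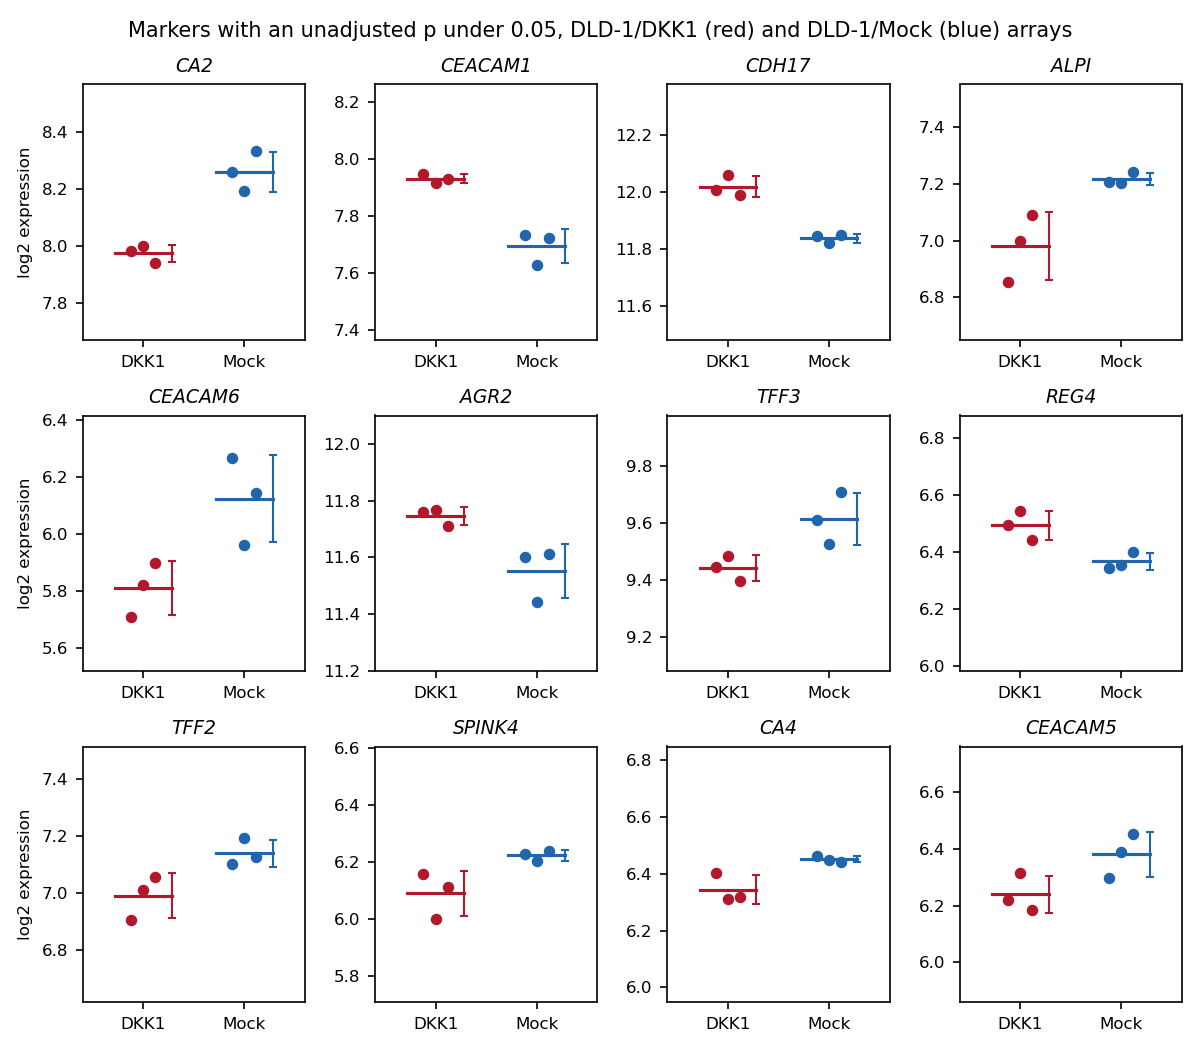
Log2 expression (vertical axis, the same span of 0.9 in every panel) of the 12 markers with an unadjusted limma p under 0.05 on the DLD-1/DKK1 arrays (red, left) and the DLD-1/Mock arrays (blue, right), with points for single arrays, bars for group means and whiskers for ± SD (n = 3). In CA2 the DLD-1/DKK1 arrays lie at 7.94 to 8.00, below the DLD-1/Mock arrays at 8.19 to 8.33, and CEACAM5 is the 1 panel in which the groups overlap.

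None of the 10 measured enteroendocrine markers had an unadjusted p under 0.05, and with 10.1% of the named genes under it, 0 of 10 is near the background and says nothing particular of this lineage. SCG5, a chaperone of the prohormone convertase PCSK2, had log2 values of 9.63, 9.65 and 9.61 in DLD-1/DKK1, against 9.60, 9.46 and 9.53 in DLD-1/Mock. Its groups did not overlap, although by only a little, and the fold change was 0.10 (SE 0.05; limma adjusted p = 0.572), or 0.07 without Mock 2. INSM1, a zinc finger transcription factor of endocrine cells, had 8.05, 8.00 and 8.09 in DLD-1/DKK1 and 8.07, 8.19 and 8.04 in DLD-1/Mock. These overlapped, at -0.05 (95% interval -0.19 to 0.08), and the value ran from -0.08 without Mock 3 to -0.0034 without Mock 2. PYY, a gut hormone released after meals, had 7.11, 7.27 and 7.19 in DLD-1/DKK1 and 7.09, 7.20 and 7.03 in DLD-1/Mock, a fold change of 0.08 that ran from 0.04 to 0.13 with 1 array left out. NEUROG3, the transcription factor that starts the endocrine programme, lay just under the olfactory receptor level, at 5.89, 5.93 and 5.99 in DLD-1/DKK1 and at 5.99, 6.34 and 5.90 in DLD-1/Mock. Mock 2 was its highest array, and the fold change of -0.14 was -0.01 without Mock 2 and -0.23 without Mock 3. The serotonin-synthesis enzyme TPH1, below background, had groups apart at -0.11. CHGA (-0.05), CHGB (-0.02), GCG (-0.02), SCG2 (0.00) and NTS (0.04) had overlapping groups below background.

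Brightness moved with the direction of the differences over the whole array. Named genes with a mean log2 value of 6 to 7.5 had a median fold change of -0.06, with 74% below 0, and those of 8 and over a median of 0.02, with 36.7% below 0. Of the 17 markers between 6 and 7.5, 14 were below 0, with a median of -0.09, and of the 10 markers of 8 and over 4 were. At an unadjusted p under 0.05 in limma, 5 of the 17 (29.4%) were lower, against 9.99% of the named genes of that brightness. In the same band 1 (5.88%) was higher, against 3.15%. Of the 10 markers of 8 and over, 2 were lower (20%, against 3.54%) and 2 higher (20%, against 7.25%). The 5 lower ones between 6 and 7.5 were ALPI, TFF2, SPINK4, CA4 and CEACAM5. Cyclic loess takes out a trend with brightness and was chosen after the data were seen. It left CA4 at -0.05, SPINK4 at -0.08, CEACAM5 at -0.09 and TFF2 at -0.11, all with an unadjusted limma p of 0.05 or more. ALPI (-0.20), CA2 (-0.28), CEACAM6 (-0.27), TFF3 (-0.19), CEACAM1 (0.25), REG4 (0.18), AGR2 (0.17) and CDH17 (0.16) stayed under 0.05.

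**Figure D4:**
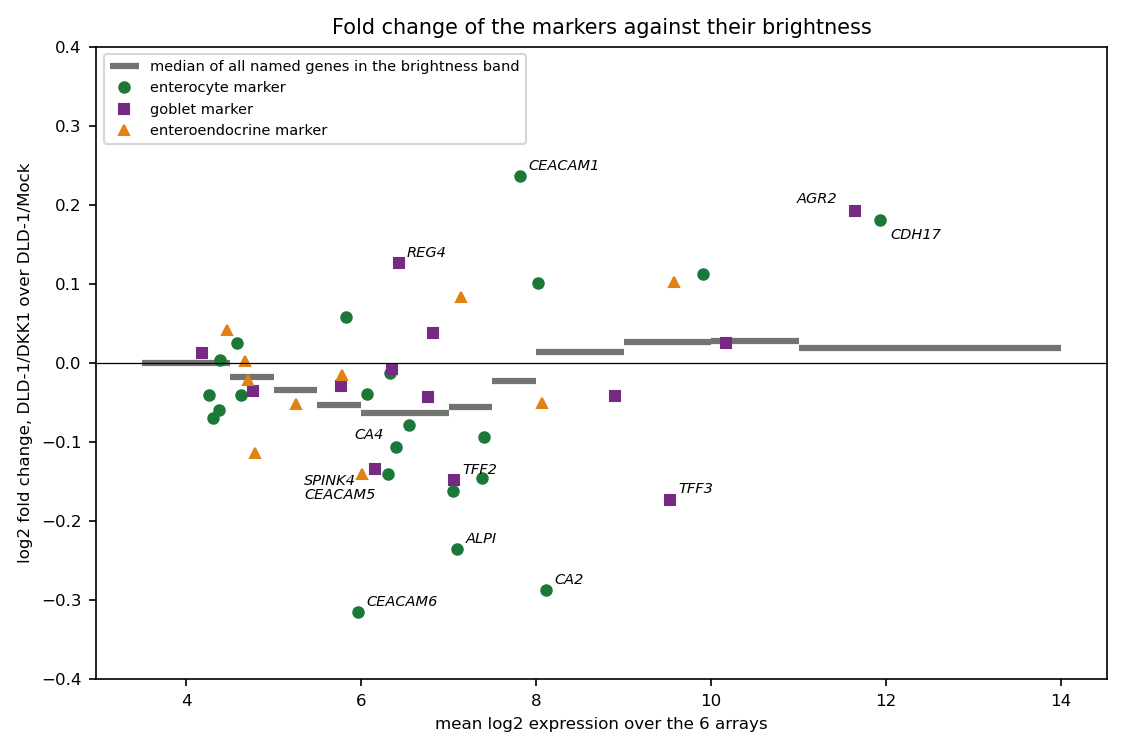
Difference in log2 expression, DLD-1/DKK1 minus DLD-1/Mock (vertical axis), against mean log2 expression over the 6 arrays (horizontal axis) for the 45 measured markers (points by lineage), with grey bars for the median of all named genes in each band of brightness. The bars reach -0.06 between 6 and 7 and lie above 0 from 8 on. CA2, CEACAM6, CEACAM1 and TFF3 are among the points far from the bar at their own brightness.

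Further genes of the same lineages were counted from fixed lists. Of 24 other enterocyte genes 0 passed the adjusted threshold and 3 had an unadjusted limma p under 0.05, of 19 other goblet genes 0 and 4, and of 22 other enteroendocrine genes 0 and 6, beside 10.1% of the named genes. CADPS, which primes dense-core granules for release, had log2 values of 9.48, 9.53 and 9.44 in DLD-1/DKK1, against 9.21, 9.16 and 9.22 in DLD-1/Mock. The groups did not overlap, with a fold change of 0.29 (SE 0.04; limma adjusted p = 0.123). CPE, an enzyme of prohormone processing, had 0.21 (SE 0.06; limma adjusted p = 0.443), and GIP, a hormone gene below background, had -0.19. In the enterocyte list the brush border motor MYO1A, dim at 5.79, had -0.18, MEP1A, also dim, had 0.17, and the apolipoprotein APOC3 had 0.53 (SE 0.19; limma adjusted p = 0.512), with Mock 3 inside the DLD-1/DKK1 range. In the goblet list SYTL2 had 0.15, the transcription factor SPDEF -0.14 and WFDC2 -0.16. ATOH1, the transcription factor that opens the secretory lineage, and the main intestinal mucin MUC2 were not among the genes under 0.05, at -0.06 and -0.04.

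Genes of the crypt base and of other cell types were checked beside the lineages. Against the same 10.1%, of 14 Paneth, tuft and stem cell genes 0 passed and 2 had an unadjusted limma p under 0.05, the stem cell receptor LGR5 and the dim PTGS1 (-0.20). LGR5 was bright, at 12.13, 12.14 and 12.17 in DLD-1/DKK1, against 12.30, 12.22 and 12.33 in DLD-1/Mock. Its groups did not overlap, with a fold change of -0.14 (SE 0.04; limma adjusted p = 0.482). Of 7 leukocyte genes 2 were lower at an unadjusted limma p under 0.05, CD68 (-0.26) and CD14 (-0.27), and PTPRC was dim on every array. The log2 of the summed linear values of the leukocyte genes was 8.85 to 8.90 in DLD-1/DKK1 and 8.99 to 9.08 in DLD-1/Mock. Fibroblast (0 of 6) and endothelial (0 of 5) genes had none under 0.05. Of 5 hepatocyte genes SERPINA1, also made by enterocytes, had -0.44 (SE 0.05, limma adjusted p = 0.0696) and the dim CYP3A4 0.26. The log2 of their summed linear values was 8.24 to 8.31 in DLD-1/DKK1 and 8.49 to 8.56 in DLD-1/Mock. Such sums were also lower without overlap for the Paneth, tuft and stem cell genes, 13.05 to 13.07 against 13.11 to 13.20. For the other enterocyte genes they were barely apart. They overlapped for the other goblet, other enteroendocrine, epithelial, fibroblast and endothelial lists. All 6 arrays were of cultured DLD-1 cells. Whether genes of other cell types were read from transcripts of the line or from probe background was not tested.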

How the data were processed

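Log2 expression per probe set was deposited for 6 Human Gene 1.0 ST arrays. The authors computed these log2 values in R by robust multichip averaging (affy), which subtracts background, normalises probe intensities across arrays and combines the probes of a set, so that much of a shift common to most transcripts would be lost and differences of dim genes shrink. The deposited arrays still differed in their medians, by -0.05 between the groups. Their tool versions and annotation build are not given in the sources used here. Values entered as deposited, and the number of arrays limits their precision.

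Of 32321 probe sets, 19158 had 1 gene symbol in the platform annotation, 1388 several and 11775 none, and 19128 symbols were brought up to date by gene number (GRCh38.p14). Groups follow the sample titles. All probe sets entered 1 limma fit (limma 3.58.1, R 4.3.3, default prior) of DLD-1/DKK1 minus DLD-1/Mock, with two-sided p-values adjusted by Benjamini-Hochberg over all probe sets and a threshold of 0.05. No set test was made. The members and lists were chosen with earlier results of these data known. Given array by array were markers with an unadjusted p under 0.05 and the 4 brightest of each lineage, and from each other list up to 3 genes with the smallest unadjusted p under 0.05 were named. Other genes are named to account for every marker or for a cell type, and ATOH1 and MUC2 were chosen after their values were seen. Promoters and motif matches come from a RefSeq table (alignment with biopython 1.88). The alternatives tried were another normalisation (quantile, or centring on the median), restricting the probe sets by brightness or annotation, a prior with trend and robust fitting, array weights, the replicate number as a block, omission of each array, other background levels and, chosen after seeing the data, cyclic loess. The fit was tested on simulated data. Figures were drawn with matplotlib 3.10.9.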

Additional observations from a re-analysis of the deposited data

How the results depend on the processing

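No marker passed the adjusted threshold of limma in any of the 14 alternatives, and the lowest adjusted p of a marker over them was 0.0719, for CA2 among annotated probe sets. CA2, CEACAM1, CDH17, ALPI, CEACAM6 and AGR2 kept an unadjusted p under 0.05 in every setting run on them, and the 12 markers with such a p kept their direction in all. Since the groups of 11 of the 12 do not overlap, leaving out an array could not turn them. The count of markers with an unadjusted p under 0.05 was 7 above the median brightness, where 18 markers were tested (12.6% of all probe sets in that setting), 7 with a trended and robust prior (9.29%), 7 with the replicate block (7.52%), 8 after quantile normalisation (8.37%), 9 after median centring (11.5%), 8 with cyclic loess (8.56%) and 7 to 9 with 1 array left out (5.92% to 9.95%), with 7 (7.81%) without Mock 2. This count was 12 among annotated probe sets (11.8%) and 11 with array weights (10.4%). The median fold change of the markers was -0.0085 after quantile normalisation, 0.0138 after median centring, -0.0085 above the median brightness and -0.0111 with cyclic loess, and ran from -0.0455 to -0.0039 with 1 array left out, the last without Mock 2. The direction of this median therefore rests on the scaling.

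All probe sets past the threshold numbered 17 after median centring, 66 above the median brightness, 98 among annotated ones, 53 with a trended and robust prior, 59 with array weights, 1 with the replicate block and 2 to 6 with 1 array left out. The cause was not tested. DKK1 kept its call throughout. TFF1 turned to 0.011 and INSM1 to 0.0016 after median centring, GALNT12 to -0.00074 after quantile normalisation, and TFF1 ranged from -0.118 to 0.0136 with 1 array left out. The replicate numbers showed no sign of pairing the dishes, as same-numbered arrays deviated with correlations of 0.105, 0.00821 and -0.137. Arrays of unlike number had correlations of -0.235 to 0.225, and 3 arrays per group are too few to settle whether dishes were paired. Markers above background numbered 18 at the 99th percentile of the olfactory receptors and 18 at the median of all probe sets, against 27.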
